A study of Peromyscus maniculatus and Peromyscus polionotus and Peromyscus maniculatus x Peromyscus polionotus with 18 samples.

Results

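The Hox genes were followed through whole-brain RNA of deer mice. In the nervous system their activity marks mainly the hindbrain and spinal cord, the caudal end of a brain dissection. Members were all genes whose symbol was Hox, a cluster letter from a to d and a paralog number, and 38 of the 20731 named genes in the table of the parental species met this rule. The table gives TPM, transcript abundance per gene length scaled to a common total, and 14 of the 38 members reached a mean of 1 TPM and entered the tests. In a second table, of allele-assigned counts in hybrids, 5 members were present among 11928 genes. The groups were *Peromyscus polionotus* (the oldfield mouse, a builder of long burrows) after a burrowing trial and after a control trial, *P. maniculatus* (the deer mouse, a builder of short burrows) after each of the same trials, and F1 hybrids of the 2 species after each. Each of the 6 groups held 3 libraries, 18 in all, of whole brains of males aged about 50 to 80 days that had been through 2 earlier trials in the sand-filled enclosures. Libraries are called by species, trial and the replicate number in their labels. What the control animals met in their trial is not given in the labels, nor where the cut between brain and spinal cord was made.

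Hox genes encode homeodomain transcription factors that give cells their position along the head to tail axis. They lie in clusters, and the order of genes within a cluster matches the order of their domains: low paralog numbers are active from the hindbrain backwards, middle numbers from the caudal hindbrain and neck, and high numbers only in the trunk and tail end of the spinal cord. In the embryo the forebrain and midbrain normally hold no Hox activity. In the mouse the hindbrain and spinal cord keep much of their pattern into adulthood. Hox proteins bind DNA together with partners of the Pbx, Meis and Pknox families, and retinoic acid switches the clusters on in the embryonic hindbrain.

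The whole-brain libraries gave a Hox profile that stopped after paralog group 8. Of the 8 members of groups 1 to 3, 5 reached the mean of 1 TPM, as did all 7 members of groups 4 and 5, 2 of the 8 members of groups 6 to 8, and 0 of the 15 members of groups 9 to 13. In groups 9 to 13, 8 members were listed at 0 in all 12 parental libraries and no value exceeded 0.336 TPM. By cluster, 3 of 11 members of Hoxa, 6 of 10 of Hoxb, 2 of 9 of Hoxc and 3 of 8 of Hoxd reached the mean. Of the 24 members below it, 10 were listed at 0 in every parental library, and 22 of all 38 members were under 1 TPM in every one. The members just outside this limit were Hoxa3 (median 0.893 TPM) and Hoxb7 (median 0.919 TPM). A 39th Hox gene of the reference annotation, Hoxd11, was not analysed here.

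Before any group is compared, 2 libraries have to be set apart. Summed over all 38 members, Hox RNA came to 54.4, 56.2 and 63.2 TPM in the polionotus burrowing libraries and to 43.7, 8.15 and 23.5 TPM in the polionotus control libraries. In *P. maniculatus* the sum was 49.5, 40.4 and 58.3 TPM in burrowing libraries and 53.0, 48.2 and 63.3 TPM in control libraries. Polionotus control libraries 2 and 3 therefore lay below the other 10, which ran from 40.4 to 63.3 TPM. Polionotus control library 2 was lowest or tied lowest of the 12 libraries for 12 of the 14 tested members, where it was so for 14.3% of all 14366 genes tested. Polionotus control library 3 was lowest or tied lowest for 2 members (3.06% of all genes), and maniculatus burrowing library 2 for 1 member, Hoxa2 (7.62%). The number of genes with at least 1 TPM, 14308 and 14331 in polionotus control libraries 2 and 3, lay inside the range of the other libraries, 14104 to 14392. In bulk tissue, fewer cells of a type and less RNA per cell cannot be told apart, so these sums do not separate a shorter piece of caudal tissue from lower Hox activity in the same tissue. Each comparison of Hox genes that uses these libraries is given below with and without them, and so is the control comparison of the gene lists.

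**Figure D1:**
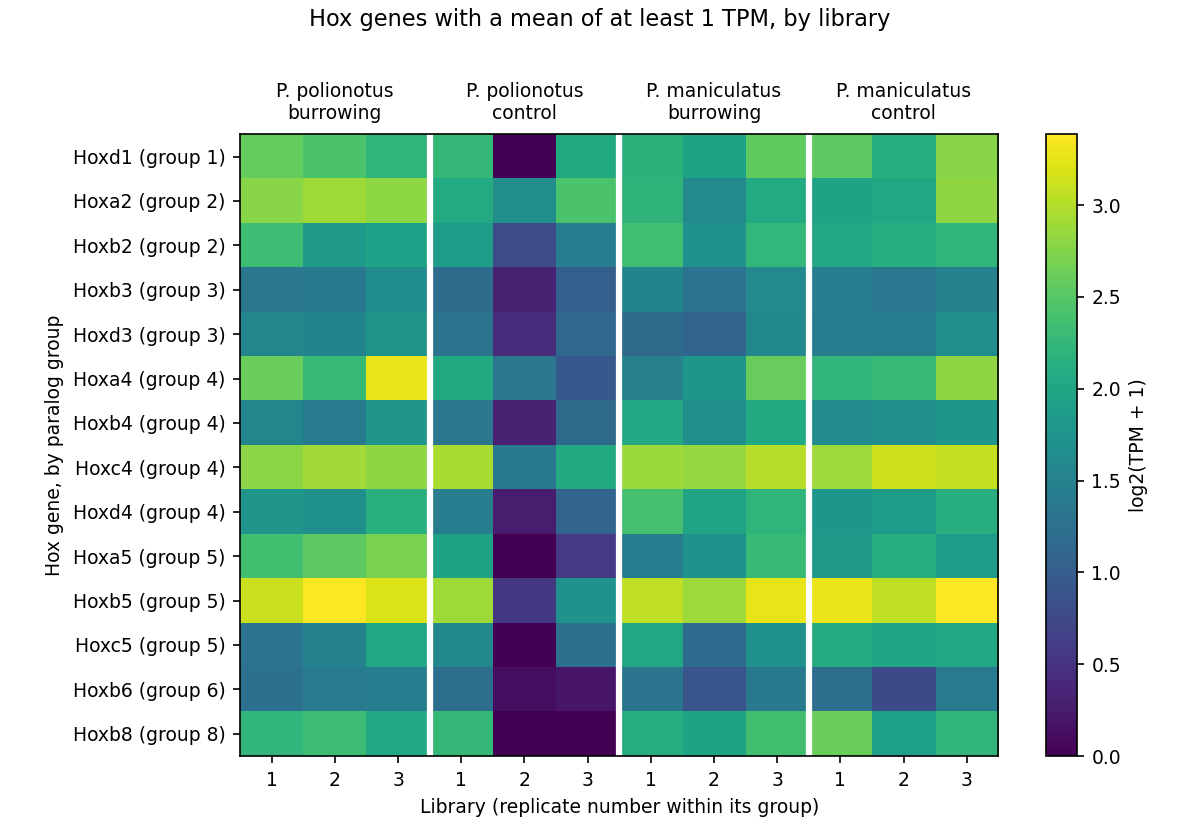
Log2(TPM + 1) of the 14 tested Hox genes (down the page, by paralog group) in the 12 parental libraries (across, 3 for each group), as a colour scale that is dark at low values. Polionotus control library 2 is the darkest column for 12 of 14 members, and within the column of polionotus control library 3 Hoxa5, Hoxb6 and Hoxb8 are darkest.

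In the first band, paralog groups 1 to 3, the most abundant members were Hoxa2 and Hoxd1. Hoxa2, the Hox gene with the most forward limit in the mouse hindbrain, was at 5.91, 6.47 and 6.01 TPM after burrowing and at 3.20, 2.20 and 4.38 TPM after control trials in *P. polionotus*. In *P. maniculatus* it was at 3.59, 2.04 and 3.20 TPM after burrowing and at 2.85, 3.05 and 6.05 TPM after control trials. The 3 polionotus burrowing libraries were all above the polionotus control and the maniculatus burrowing libraries, while maniculatus control library 3 reached the polionotus burrowing level. Hoxd1, studied in mice for its part in wiring pain-sensing neurons, was at 4.98, 4.37 and 3.65 TPM after burrowing and at 3.77, 0 and 3.16 TPM after control trials in *P. polionotus*. It was at 3.53, 2.92 and 4.89 TPM after burrowing and at 4.83, 3.40 and 5.91 TPM after control trials in *P. maniculatus*. Polionotus control library 2, where Hoxd1 was listed at 0, stood alone, and the other 11 libraries of all 4 groups overlapped.

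Hoxb2, which in mice acts in facial motor neurons, showed the same low library. It was at 4.03, 2.51 and 2.83 TPM after burrowing and at 2.62, 0.720 and 1.73 TPM after control trials in *P. polionotus*, and at 4.07, 2.29 and 3.75 TPM after burrowing and 3.14, 3.37 and 3.68 TPM after control trials in *P. maniculatus*. Hoxb3, a hindbrain gene of the next group, was at 1.55, 1.58 and 2.13 TPM after burrowing and at 1.28, 0.263 and 1.03 TPM after control trials in *P. polionotus*. In *P. maniculatus* it was at 1.87, 1.45 and 2.03 TPM after burrowing and at 1.75, 1.51 and 1.82 TPM after control trials. For Hoxb3 all 3 polionotus control libraries were below all 9 others, whereas Hoxb2 in polionotus control library 1 was inside the range of the burrowing libraries. Hoxd3, a paralog of Hoxb3, ranged from 0.344 TPM in polionotus control library 2 to 2.38 TPM in polionotus burrowing library 3.

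Paralog groups 4 and 5 carried the largest share of Hox RNA, with a median sum over the 12 libraries of 28.9 TPM, against 15.5 TPM for groups 1 to 3 and 6.17 TPM for groups 6 to 8. Hoxb5, a gene of caudal hindbrain, spinal cord and vagal neural crest, was the most abundant member. It was at 7.67, 9.45 and 8.26 TPM after burrowing and at 6.47, 0.458 and 2.31 TPM after control trials in *P. polionotus*. In *P. maniculatus* it was at 7.38, 6.44 and 8.56 TPM after burrowing and at 8.72, 7.32 and 9.37 TPM after control trials. Polionotus control library 1 was at the lower edge of the other libraries, and polionotus control libraries 2 and 3 were far below it. Hoxc4, one of the group 4 genes whose forward limit lies in the caudal hindbrain, was at 5.93, 6.56 and 6.11 TPM after burrowing and at 6.74, 1.59 and 3.17 TPM after control trials in *P. polionotus*. In *P. maniculatus* it was at 6.32, 6.21 and 7.14 TPM after burrowing and at 6.44, 7.70 and 7.52 TPM after control trials. Leaving aside polionotus control libraries 2 and 3, Hoxc4 lay between 5.93 and 7.70 TPM in all 4 groups.

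Hoxb4 and Hoxd4, its paralogs, were lower and separated the species in more libraries. Hoxb4 was at 1.94, 1.62 and 2.398 TPM after burrowing and at 1.54, 0.246 and 1.26 TPM after control trials in *P. polionotus*, and at 3.11, 2.22 and 3.15 TPM after burrowing and 2.09, 2.17 and 2.48 TPM after control trials in *P. maniculatus*. Hoxd4 was at 2.396, 2.25 and 3.45 TPM after burrowing and at 1.69, 0.207 and 1.16 TPM after control trials in *P. polionotus*, and at 4.25, 2.93 and 3.64 TPM after burrowing and 2.47, 2.62 and 3.38 TPM after control trials in *P. maniculatus*. For both genes the 3 polionotus control libraries were below all 9 others, and the burrowing libraries of the species overlapped. Hoxa4 varied widely within groups. It was at 5.12, 3.92 and 8.79 TPM after burrowing and at 3.14, 1.54 and 0.912 TPM after control trials in *P. polionotus*. In *P. maniculatus* Hoxa4 was at 1.79, 2.44 and 5.06 TPM after burrowing and at 3.69, 3.89 and 6.06 TPM after control trials. Its lowest library was polionotus control library 3, not library 2. In the reference annotation the span of Hoxa3 overlaps Hoxa4, Hoxa5 and Hoxa6, so reads of these 4 genes may have been divided by the authors' counting, and their values are less certain.

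Hoxa5 and Hoxc5 are needed in mice by the phrenic motor neurons that drive breathing. Hoxa5 was at 4.15, 4.83 and 5.50 TPM after burrowing and at 2.88, 0 and 0.482 TPM after control trials in *P. polionotus*, and at 1.69, 2.32 and 3.89 TPM after burrowing and 2.53, 3.36 and 2.63 TPM after control trials in *P. maniculatus*. The polionotus burrowing libraries were above all 9 others, and polionotus control libraries 2 and 3 were below all others. Hoxc5 was at 1.45, 1.84 and 3.05 TPM after burrowing and at 1.98, 0 and 1.37 TPM after control trials in *P. polionotus*, and at 3.09, 1.28 and 2.29 TPM after burrowing and 3.24, 2.95 and 3.07 TPM after control trials in *P. maniculatus*. Its 3 polionotus control libraries were below the 3 maniculatus control libraries, but polionotus burrowing libraries 1 and 2 and maniculatus burrowing library 2 were also under 2 TPM.

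Paralog groups 6 to 8 were where the 2 low libraries were emptiest. Hoxb8, whose loss in mice leads to compulsive grooming, was at 3.67, 4.06 and 3.12 TPM after burrowing and at 3.75, 0 and 0 TPM after control trials in *P. polionotus*. In *P. maniculatus* it was at 3.33, 2.91 and 4.12 TPM after burrowing and at 5.15, 2.75 and 3.65 TPM after control trials. Hoxb8 was thus at a similar level in 10 libraries of all 4 groups and listed at 0 in the remaining 2. Hoxb6, a gene of the spinal cord, was at 1.35, 1.61 and 1.71 TPM after burrowing and at 1.33, 0.0909 and 0.149 TPM after control trials in *P. polionotus*. In *P. maniculatus* it was at 1.46, 0.864 and 1.57 TPM after burrowing and at 1.33, 0.694 and 1.62 TPM after control trials. Polionotus control library 1 was inside the range of the other libraries for both genes. Hoxb7, below the limit, was listed at 0 in polionotus control library 2 and was at 0.0664 TPM in library 3, while the other 10 libraries had 0.394 to 1.30 TPM. Hoxd13, the most posterior gene of its cluster, did not follow this order: it was at 0.238 TPM in polionotus control library 2 and 0.156 TPM in library 3, inside its range of 0.0614 to 0.336 TPM over all libraries.

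The shortfall differed between bands. In polionotus control library 2 the median member of groups 1 to 3 stood at 20.4% of its median over the 12 libraries, that of groups 4 and 5 at 8.12% and that of groups 6 to 8 at 3.39%. In polionotus control library 3 the same medians were 70.5%, 45.5% and 5.57%. In polionotus control library 1 they were 87.8%, 86.0% and 103%, with no fall toward high numbers. The bands overlapped in polionotus control library 2. Its members ran from 0% (Hoxd1) to 64.7% in groups 1 to 3 and from 0% to 40.5% in groups 4 and 5. Groups 6 to 8 held only 2 tested members, Hoxb6 (6.77% there) and Hoxb8 (0%). Members under 50% of their median numbered 13 of 14 in polionotus control library 2, 7 in polionotus control library 3, 1 in maniculatus burrowing library 1 and 0 in each of the other 9 libraries. Across the 14 members, Spearman's rho between this percentage and the paralog number was -0.82 in polionotus control library 3 and -0.52 in polionotus control library 2. It was -0.47 in maniculatus control library 3, where no member fell below 95.6%, and between -0.33 and 0.25 in the other 9. These rho values describe single libraries, whose members share the same RNA, and they carry no test.

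**Figure D2:**
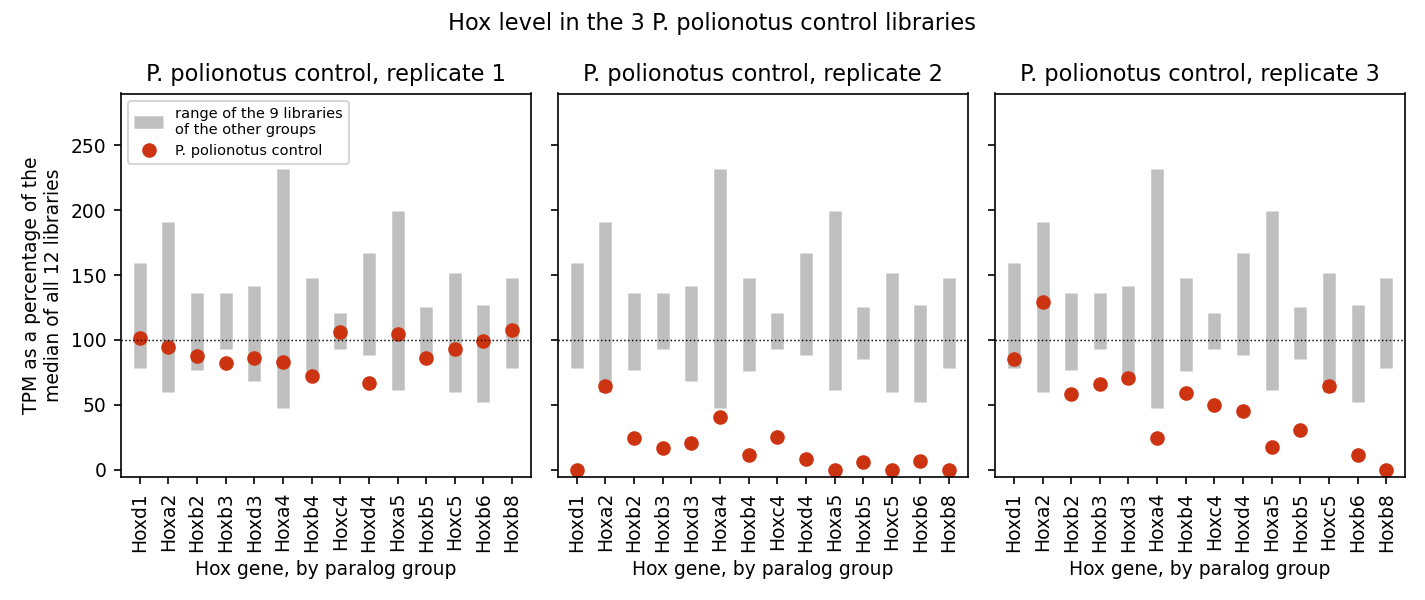
TPM of each tested Hox gene as a percentage of its median over all 12 libraries (y axis), ordered by paralog group (x axis), with a panel for each polionotus control library. Points are that library and grey bars the range of the 9 libraries of the other groups. In library 3 the points lie at 58.0% to 129% in groups 1 to 3 and at 11.1% or less in groups 6 to 8, and in library 2 all 14 lie at or under 64.7%.

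The balance of the bands gave the same picture in TPM. Groups 6 to 8 summed to 5.99, 7.21 and 6.57 TPM in polionotus burrowing libraries and to 6.09, 0.119 and 0.379 TPM in polionotus control libraries. They summed to 6.25, 5.54 and 7.01 TPM in maniculatus burrowing libraries and to 7.88, 4.05 and 7.20 TPM in maniculatus control libraries. As a share of all Hox RNA, groups 6 to 8 held 1.46% and 1.61% in polionotus control libraries 2 and 3, against 8.41% to 14.9% in the other 10. The ratio of groups 4 to 8 over groups 1 to 3 was 1.13 in polionotus control library 2 and 0.909 in library 3, against 1.79 to 2.80 elsewhere.

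**Figure D3:**
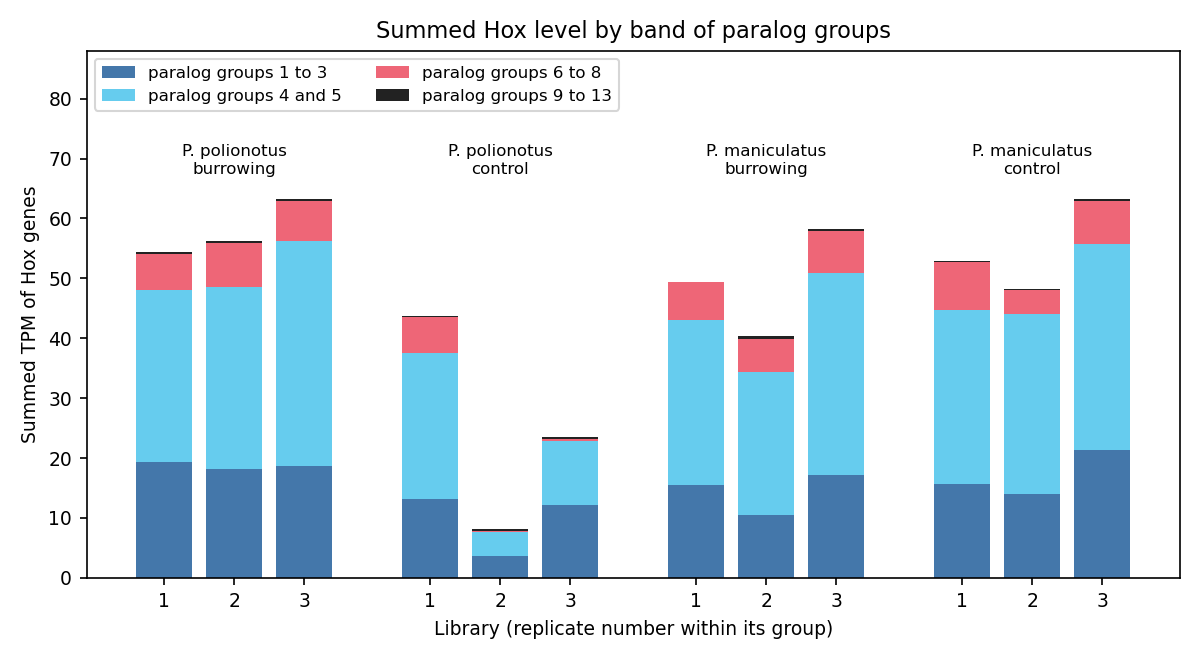
Summed TPM of the Hox genes (y axis) in the 12 parental libraries (x axis, by group), stacked by band of paralog groups. The bars of polionotus control libraries 2 and 3 end at 8.15 and 23.5 TPM, and their layer of groups 6 to 8 is 0.119 and 0.379 TPM thick, against 4.05 to 7.88 TPM in the other 10.

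Between the species after control trials, 10 of the 14 tested Hox genes were lower in *P. polionotus* and 0 were higher (limma on log2(TPM + 1), Benjamini-Hochberg adjusted p below 0.05). Among all genes tested, 12.9% were lower, 26.8% higher and 39.6% changed in either direction. With quantile-normalised values 19.9% of all genes were lower and 19.7% higher, and 11 members were lower. The largest differences were those of Hoxb5, which averaged 3.08 ± 3.08 TPM in polionotus controls against 8.47 ± 1.05 TPM in maniculatus controls (SD of 3 libraries a group), with a log2 fold change of -1.51 (SE 0.43, limma adjusted p = 0.0167), and of Hoxb8, with -1.50 (SE 0.48, adjusted p = 0.0301). The smallest adjusted p was that of Hoxd4, with means of 1.02 ± 0.752 TPM in polionotus controls against 2.82 ± 0.486 TPM in maniculatus controls (-0.99, SE 0.25, limma adjusted p = 0.0102). Hoxc4 (-0.91), Hoxb4 (-0.75), Hoxa4 (-1.003), Hoxa5 (-1.09), Hoxc5 (-1.09), Hoxb2 (-0.77) and Hoxb3 (-0.58) completed the 10, with limma adjusted p from 0.0219 to 0.0481. Hoxd3, Hoxb6 and Hoxd1 missed the threshold, with adjusted p of 0.0503, 0.0953 and 0.099. Hoxa2 had a log2 fold change of -0.20 and an adjusted p of 0.544. The median over the 14 members was -0.95, against 0.08 over all genes.

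Without polionotus control libraries 2 and 3, 0 of the 14 members were called in this comparison by limma and 0 had an unadjusted p under 0.05, where 7.44% of all genes were called lower and 11.6% higher. The 1 remaining polionotus control library was assumed to vary like the other groups. Libraries 2 and 3 were picked by their low Hox sums, so the loss of Hox calls without them was largely fixed in advance. The 14 log2 fold changes then ran from -0.50 for Hoxd4 to 0.10 for Hoxb6, with a median of -0.24, and 3 had turned: Hoxb6, Hoxa5 (0.02) and Hoxb8 (0.002). Without library 2 alone 3 members were called (Hoxb4, Hoxb5 and Hoxd4), and without library 3 alone 5 were called (the same 3 with Hoxb3 and Hoxc5). Without maniculatus control library 1, 2 or 3 the calls numbered 4, 3 and 2. A fit of the 2 compared groups alone called 2, Hoxa4 and Hoxd4. The matching shares of all genes are not given for fits with 1 library left out or of these groups alone. For 8 members (Hoxa4, Hoxb2, Hoxb3, Hoxb4, Hoxb5, Hoxc5, Hoxd3 and Hoxd4) every polionotus control library was below every maniculatus control library, where this held for 17% of all genes. With polionotus control library 1 as the only library of its group, the same 8 members were below all 3 maniculatus control libraries. This held for 29.1% of all genes. Leaving out libraries can never lower such a count, so it is no check of the 8.

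**Figure D4:**
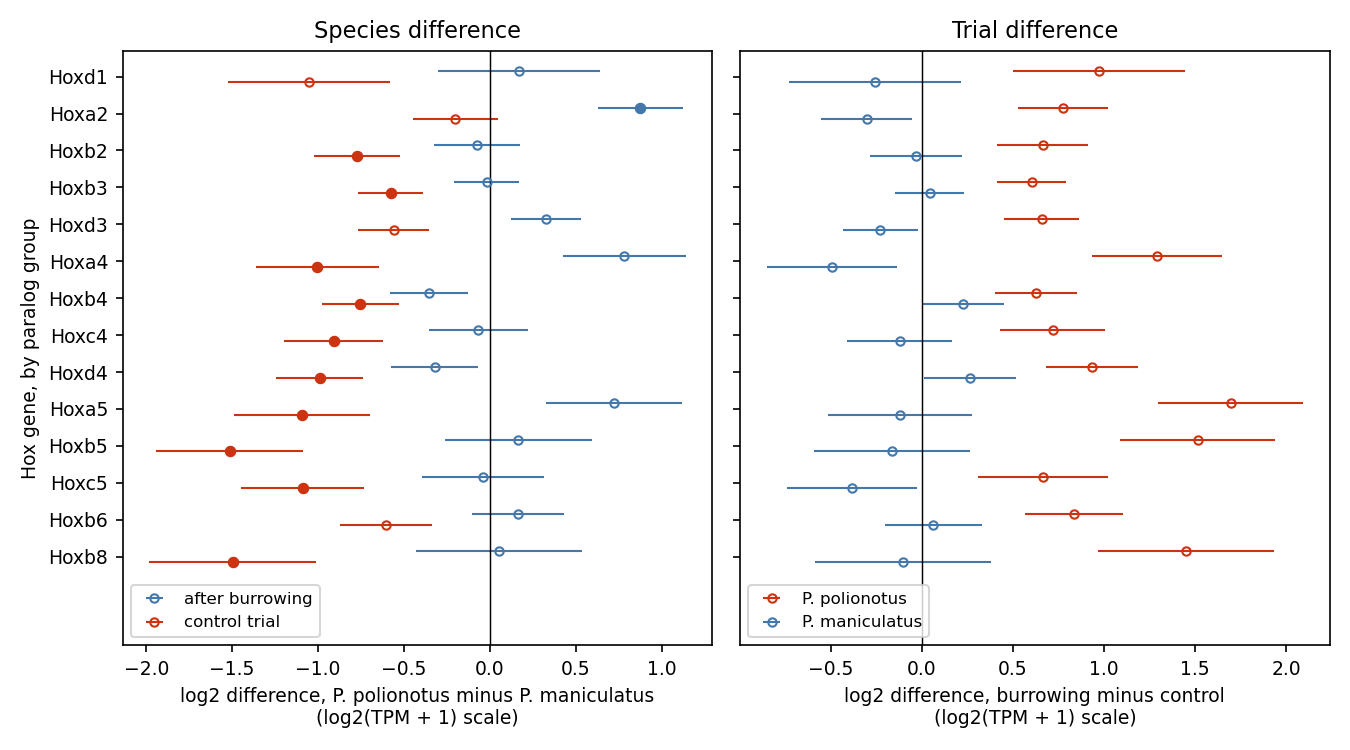
Log2 differences (x axis, with SE as bars) of the 14 tested Hox genes. On the left *P. polionotus* is set over *P. maniculatus*, after burrowing and after control trials, and on the right burrowing over control trials in each species. Filled points passed an adjusted p of 0.05, which were 10 members in control animals and Hoxa2 after burrowing.

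After burrowing trials 1 member was called between the species. The tests used a spread shared by all 4 groups, polionotus control libraries 2 and 3 included. Hoxa2 was higher in *P. polionotus*, at 6.13 ± 0.300 TPM, than in *P. maniculatus*, at 2.94 ± 0.807 TPM (SD, n = 3 each; log2 fold change 0.88, SE 0.25, limma adjusted p = 0.019), where 20% of all genes were higher and 34.1% changed in either direction. Without polionotus burrowing library 2 or without maniculatus burrowing library 2, Hoxa2 no longer passed. Hoxa5 was also higher in every polionotus burrowing library than in every maniculatus burrowing library, as 28.8% of all genes were, but its log2 fold change of 0.72 had an SE of 0.40 and an adjusted p of 0.188. It passed without polionotus control library 1, without polionotus control libraries 2 and 3, and in a fit of the compared groups alone, each of which called 2 members. Hoxa4, at 0.78 (SE 0.36, adjusted p = 0.117), passed without maniculatus burrowing library 3, and Hoxb4 without polionotus control library 2. The median over the 14 members was 0.11, against 0.03 over all genes, and the members ran from -0.36 for Hoxb4 to 0.88 for Hoxa2. Averaged over both trials, Hoxd4 (-0.66, SE 0.18, limma adjusted p = 0.00987) and Hoxb4 (-0.55, SE 0.16, adjusted p = 0.0132) were lower in *P. polionotus*, where 19.8% of all genes were lower, 32.6% higher and 52.4% changed in either direction (26.8% lower and 26.6% higher after quantile normalisation, which called 4 members). With the replicate number as a block, 5 members were called (Hoxb2, Hoxb3, Hoxb4, Hoxc5 and Hoxd4). Without polionotus control libraries 2 and 3 the log2 fold changes were -0.41 for Hoxd4 and -0.36 for Hoxb4. The median of the 14 members was then -0.05, and the sign turned for Hoxa4, Hoxa5, Hoxb6, Hoxb8 and Hoxd3, which reached 0.03 to 0.37. Without polionotus control library 1, 10 members were called in the average over both trials. Apart from quantile normalisation, shares of all genes called are not given for the alternative fits of this paragraph.

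Whether a burrowing trial changed Hox RNA was asked within each species. In *P. polionotus* 0 of 14 members passed limma's adjusted threshold (lowest adjusted p 0.998), as did 0% of all genes, and 12 members had an unadjusted p under 0.05, where 3.1% of all genes did. All 14 log2 fold changes of burrowing over control were positive, from 0.60 for Hoxb3 to 1.70 for Hoxa5 (SE 0.40, unadjusted p = 0.00136), with a median of 0.81 against -0.02 over all genes. Every burrowing library was above every control library for 9 members (Hoxa2, Hoxa4, Hoxa5, Hoxb3, Hoxb4, Hoxb5, Hoxb6, Hoxd3 and Hoxd4), which held for 2.22% of all genes. With polionotus control library 1 as the only control library, it lay below all 3 burrowing libraries for 9 members as well. The same held for 18.3% of all genes, and this count too cannot fall when libraries are left out. Without polionotus control libraries 2 and 3 the 14 values ran from -0.11 to 0.76 with a median of 0.24, Hoxa2 was the highest at 0.76, and the direction turned for Hoxb8 (-0.05) and Hoxc4 (-0.11). Without polionotus control library 1, Hoxa5 and Hoxb8 passed limma's threshold, with adjusted p of 0.0269 and 0.007. The share of all genes that passed in this fit is not given here.

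In *P. maniculatus* the same contrast gave smaller values of both signs. It called 0 of 14 members, where 0.00696% of all genes were called, and 0 members had an unadjusted p under 0.05, as 2.03% of all genes did. The log2 fold changes ran from -0.49 for Hoxa4 (SE 0.36) to 0.27 for Hoxd4 (SE 0.25). The difference between the trial effects, *P. polionotus* minus *P. maniculatus*, was positive for all 14 members, from 0.40 for Hoxb4 to 1.82 for Hoxa5 (SE 0.56). Of these, 0 passed the adjusted threshold in limma (adjusted p = 0.992 for each), as did 0% of all genes, and 6 had an unadjusted p under 0.05 (2.89% of all genes). Without polionotus control libraries 2 and 3 the difference ran from 0.001 to 1.18, with a median of 0.31. These contrasts share the polionotus control libraries with the species comparison of control animals.

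The hybrids gave a separate look at both questions, in animals that carry an allele of each species. The count table held Hoxa2, Hoxa4, Hoxa5, Hoxb5 and Hoxd1, with 120 to 675 Hox counts among 11415175 to 53906964 allele-assigned counts per animal. Scaled to the allele-assigned total of the animal, the 5 members together came to 12.03, 11.9 and 11.3 CPM (counts scaled to a common total) in F1 burrowing animals and to 10.5, 12.1 and 12.5 in F1 control animals. For the members together the groups overlapped, and among these 5 members no hybrid stood apart as the 2 polionotus control libraries did. The count table held no value below 2, so a member at 0 in any hybrid could not be among the 5. Hoxb6 and Hoxb8, strongly reduced in both low parental libraries, were not in that table. A hybrid with low Hox RNA could therefore have been missed. Hoxa4 was the most abundant member, at 4.65 ± 0.439 CPM after burrowing and 4.63 ± 0.805 after control trials (SD, n = 3 each). Hoxd1 followed, at 3.16 ± 0.205 CPM after burrowing and 3.02 ± 0.207 after control trials. Hoxa5 was at 1.18, 0.966 and 1.24 CPM in F1 burrowing animals and at 1.31, 1.27 and 1.28 in F1 control animals, from 15 to 69 counts each, and every burrowing animal was below every control animal, as for 1.7% of all genes in the table. Hoxa2 and Hoxb5 averaged 1.25 to 1.52 CPM in either group, and for the other 4 members the groups overlapped. By edgeR's quasi-likelihood test on the summed alleles, 0 of the 5 members were called between trials (0% of all genes called), 0 had an unadjusted p under 0.05 (0.755% of all genes) and adjusted p ran from 0.965 to 0.993. DESeq2 also called 0 of the 5, with 0 at an unadjusted p under 0.05. The log2 fold changes lay between -0.20 for Hoxa5 and 0.19 for Hoxa2.

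Within a hybrid brain both alleles come from the same dissected tissue. The polionotus allele carried 52.6% to 53.1% of all allele-assigned counts. For Hoxa4 it carried 65.1%, 75.0% and 48.2% in the F1 burrowing animals and 51.2%, 40.0% and 43.9% in the F1 control animals, from 43 to 289 counts each. The 95% Wilson intervals of Hoxa4 ran from 66.6% to 81.9% in F1 burrowing animal 2 and from 28.6% to 52.6% in F1 control animal 2, so these animals differed by more than counting error, while the groups overlapped. Hoxd1 had polionotus shares of 57.1%, 48.4% and 66.7% in F1 burrowing animals and 55.6%, 62.9% and 46.4% in F1 control animals. Hoxa5 averaged 60.1 ± 14.8%, Hoxa2 54.4 ± 11.5% and Hoxb5 54.0 ± 13.9% over all 6 animals (SD). By edgeR with the animal as a block, 0 of the 5 members differed between alleles, where 55.7% of all genes did, and 0 had an unadjusted p under 0.05 (61.2% of all genes). The log2 ratios of polionotus over maniculatus allele were 0.50 for Hoxa5, 0.32 for Hoxd1, 0.25 for Hoxa4, 0.17 for Hoxa2 and 0.14 for Hoxb5, with a lowest adjusted p of 0.178. DESeq2 called 0 of the 5 as well. At 12 to 289 counts per gene and animal, small allelic differences were not detectable. The members called in the parental species for which no hybrid counts were at hand were not analysed here in hybrids.

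**Figure D5:**
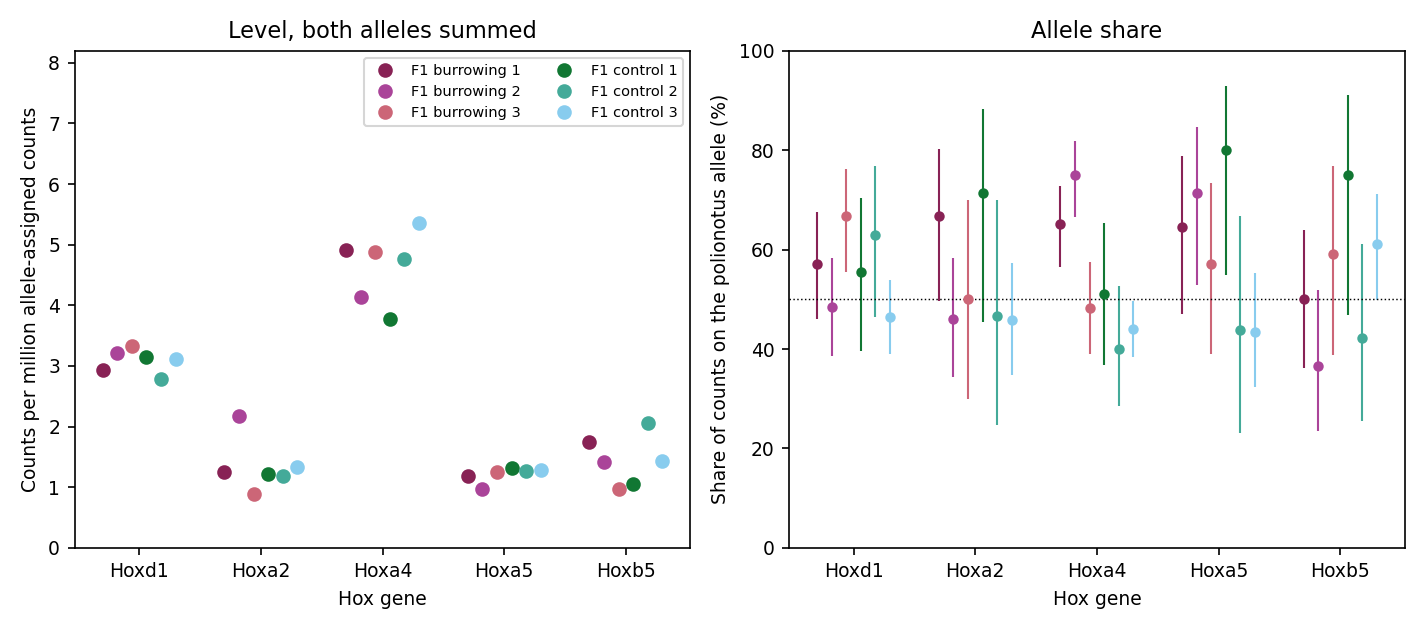
Level of the 5 Hox genes in the hybrid table, in CPM (left), and the percentage of their counts on the polionotus allele with its 95% Wilson interval (right), a point for each of 6 hybrid animals after burrowing or control trials. Animals of both trials overlap in level for each gene but Hoxa5 (no overlap in this direction for 1.7% of all genes), and the 5 genes together reach 11.3 to 12.03 CPM after burrowing and 10.5 to 12.5 after control trials.

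Other marks of caudal tissue were set beside the Hox genes. Of 15 genes of hindbrain and spinal neurons, 14 were in the parental table and 9 were tested. In control animals 3 of the 9 were lower in *P. polionotus* and 0 were higher, where 12.9% of all genes were lower and 26.8% higher. Among the 3 were Lbx1, a factor of dorsal hindbrain and spinal interneurons (-0.87, SE 0.23, limma adjusted p = 0.0131), and Slc6a5, the transporter of glycine neurons (-0.46, SE 0.16, limma adjusted p = 0.045). Lbx1 was at 4.48, 2.395 and 4.67 TPM in polionotus control libraries and at 6.92, 8.33 and 7.74 TPM in maniculatus control libraries. Slc6a5 was at 2.46, 1.58 and 2.64 TPM in polionotus control libraries, and at 3.19, 2.86 and 4.17 TPM in maniculatus control libraries. After burrowing 0 of the 9 were called. Averaged over both trials 1 of the 9 was lower and 0 were higher, where 19.8% of all genes were lower and 32.6% higher. The 1 was Lbx1 (-0.62, SE 0.165, limma adjusted p = 0.00914). This average includes the control animals, and after burrowing alone Lbx1 was at -0.36 (SE 0.23, limma adjusted p = 0.263). Polionotus control library 2 was the lowest of the 12 for 5 of the 9 (14.3% of all genes), and library 3 for 1 (3.06%). Over the 14 genes the sum was 51.7 to 55.6 TPM in polionotus burrowing, 39.6 to 56.4 in polionotus control, 49.1 to 60.8 in maniculatus burrowing and 52.6 to 66.5 in maniculatus control libraries. Among the polionotus control libraries, library 2 had the lowest sum and library 3 the highest, with 26.1 TPM of it from Barhl2. Of the 5 genes of the list that were not tested, Evx2, at most 0.613 TPM anywhere, was listed at 0 in polionotus control library 2, and Mnx1, at most 0.234 TPM, in that library and 4 others. The other 3 were not at 0 in any library, Lhx3 was at 0.823, 0.242 and 0.412 TPM in polionotus control and at 0.412, 0.263 and 0.239 TPM in maniculatus control libraries, and 1 gene was higher in every polionotus than in every maniculatus control library. With quantile-normalised values 4 of the 9 were lower in polionotus control animals (19.9% of all genes), among them Lbx1, Slc6a5 and Glra1, a glycine receptor subunit. How far the amount of caudal tissue in the samples accounts for the Hox differences was not tested.

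Markers of other regions and tissues were set beside the Hox genes as well. Forebrain markers, 13 in the table, summed to 695 to 889 TPM in polionotus burrowing and 775 to 912 in polionotus control libraries. They summed to 915 to 952 TPM in maniculatus burrowing and 700 to 995 in maniculatus control libraries. Polionotus control libraries 2 and 3 were the lowest for 0 of 13. Maniculatus control library 3 was lowest for 7 of the 13 and polionotus burrowing library 3 for 4. These 2 libraries had the highest Hox sums, 63.3 and 63.2 TPM. The shares of all genes lowest in these 2 libraries are not given here, and a relation of forebrain markers to Hox level was not tested. Cerebellar markers, 10 in the table, summed to 1059 to 1431 TPM in polionotus control and 1053 to 1629 TPM in maniculatus control libraries, and library 2 was lowest for 4 of 10. In the control comparison 26.8% of all genes were higher and 12.9% lower in *P. polionotus*. The called members were 1 higher and 1 lower of 13 for forebrain, of 10 for cerebellum and of 7 for myelin, and 0 of 4 for raphe and locus coeruleus. For tissues a dissection can carry along they were 0 higher and 1 lower of 5 for choroid plexus, 0 of 3 for peripheral nerve, 2 higher and 0 lower of 2 for sensory ganglion, 0 higher and 1 lower of 2 for pituitary, and 2 higher and 1 lower of 3 for skeletal muscle.

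Genes that work with the Hox clusters moved in both directions between the species, and some calls depended on the scaling. Their counts in control animals stand beside 26.8% of all genes higher and 12.9% lower. After burrowing 20% of all genes were higher. Of the 9 Pbx, Meis and Pknox partners, all tested, Meis2 (0.31, limma adjusted p = 0.0115) and Pknox2 (0.29, adjusted p = 0.0205) were higher and Pbx4 (-0.34, adjusted p = 0.00908) was lower in polionotus than in maniculatus control animals. With quantile-normalised values Pbx4 alone was called. After burrowing Pknox2 was higher and Pbx4 lower under both scalings. Of 12 tested genes of retinoid signalling, 5 were higher in polionotus control animals (the receptors Rara, Rarb, Rarg, Rxra and Rxrb, at 0.20 to 0.48 on the log2 scale) and 1 was lower (Crabp1, a retinoic acid binding protein, at -0.24). Rxra was no longer called with quantile-normalised values. After burrowing Rxra and Rxrb were higher, and only Rxra with quantile-normalised values. Of 14 tested chromatin regulators of the Polycomb and Trithorax groups, 4 were higher in polionotus control animals (Cbx7, Phc1, Ring1 and Suz12, at 0.19 to 0.35) and 0 were lower, and after burrowing 3 were higher. With quantile-normalised values 3 of these 4, without Suz12, were still higher in control animals and 3 others (Bmi1, Eed and Rnf2) were lower. Of the 4 tested genes that set up hindbrain segments and Hox domains (among them Egr2, Gbx2 and Gdf11), 0 were called in either comparison. None of these lists had a called gene between trials in either species. Without polionotus control libraries 2 and 3, limma called 0 of the 48 tested genes of the hindbrain and spinal, partner, retinoid, chromatin and segment lists between control animals, where 11.6% of all genes were higher and 7.44% lower, and 10 of the 48 had an unadjusted p under 0.05 (33.5% of all genes). In that fit the other lists had 4 called genes, 1 lower of forebrain, 1 higher and 1 lower of myelin and 1 higher of sensory ganglion.

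The genes whose pattern over the 12 libraries was most like the mean of the tested Hox genes, with both centred on the mean of their species, were Emc7, Kctd11, Nudt7, Myadml2, Hspb8, Rps14, LOC102923933, LOC102923654, Gp5 and Slc25a5. Pearson's r was 0.91 to 0.92 and Spearman's rho 0.72 to 0.94, and r fell to between 0.68 and 0.88 over the 10 libraries left without polionotus control libraries 2 and 3. All 10 genes had their lowest polionotus value in polionotus control library 2. The Hox mean was lowest in that library, so the ranking itself favours genes with this pattern. LOC102923933 was listed at 0 there and was at 265 TPM in polionotus control library 3, at 952 TPM in polionotus control library 1, at 1145 to 2050 TPM in polionotus burrowing libraries and at 3520 to 4467 TPM in *P. maniculatus*. Slc25a5, the ADP/ATP carrier of mitochondria, was at 279 and 497 TPM in polionotus control libraries 2 and 3 and at 524 to 592 TPM in the other 4 polionotus libraries. These correlations are over libraries of which 2 carry most of the spread, and were not tested.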

How the data were processed

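The 12 parental libraries were deposited by the authors as a table of TPM, and the 6 hybrid libraries as a table of integer counts, 2 columns an animal for the parental alleles. Per the labels' protocols, RNA came from whole brains and libraries were made with a stranded mRNA kit. STAR 2.4.2a is the aligner named in the submitters' processing notes. Build, annotation, TPM program and allele assignment are not given in the sources, so no coordinates are printed. TPM keep no depth, and the hybrid counts hold only allele-assigned reads, with a smallest count of 2. Members were found by symbol without regard to case, and 38 of the 39 Hox genes of the RefSeq annotation of another assembly had a row. 1 row without a gene name was left out.

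Parental libraries were tested with limma 3.58.1 (mean trend) under R 4.3.3. The values were log2(TPM + 1), the 14366 genes averaging 1 TPM or more over the 12 libraries were kept, and the model had 1 mean for each of 4 groups. This scale understates changes where TPM are low. Hybrid counts were tested with edgeR 4.0.16 (TMM, filterByExpr, quasi-likelihood), between trials on summed alleles and between alleles with the animal as a block (mean count per animal at least 20). DESeq2 1.42.0 was an alternative. All tests were two-sided. Benjamini-Hochberg adjustment ran over all genes of a comparison, and genes were called below 0.05. The scripts were tested on simulated data. Nothing in the labels says that same-numbered replicates share an animal or day, and no 2 groups contrasted directly had a correlation of deviations over 0.1 in all 3 same-numbered pairs. Maniculatus control and polionotus burrowing libraries, which differ in species and trial, did (0.18 to 0.55). The numbers were not taken to pair the samples. The labels name individual animals and no batch. P-values measure the spread between these libraries. Wilson intervals (95%) cover counting error only.

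The members and the 14 gene lists set beside them were chosen with earlier results of these data known, so no list has a test. Values per library are given for the 2 members of highest mean TPM in each band, for every member called in a comparison and for every member in the hybrid table. Hoxa3, Hoxb7, Hoxd3 and Hoxd13 were named beside them, as were single genes of the lists, after their values were seen. Some genes of the members and lists are counted but not reported by name here. Genes most alike were the 10 of 14330 named genes with the highest Pearson r.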

Additional observations from a re-analysis of the deposited data

Results flagged for a closer look

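Hoxd1 in polionotus control library 2 was listed at 0 TPM, while the other 5 polionotus libraries had 3.16 to 4.98 TPM. The gap to the nearest library was 0.634 of the whole range of the 6 polionotus libraries, above Dixon's 95% critical value of 0.625. Each of the 14 tested Hox genes was examined in each species, 28 sets of 6 libraries, and this was the 1 set past the value. Chance gives about 1 in 20 such sets. Where polionotus control library 3 was low as well, the gap that this rule measures was narrowed.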

How the results depend on the processing

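Between control animals, the 10 calls were 8 to 11 with a pseudocount of 0.1 or 5, no expression filter, quantile normalization, no mean trend or a replicate block. They were 2 in a fit of only the groups compared and 0 without polionotus control libraries 2 and 3. With 1 library left out they ranged from 2 to 13. Without polionotus control library 1 they were 13. After burrowing, the 1 call became 2 without the expression filter, 2 in a fit of only the groups compared, 2 without polionotus control libraries 2 and 3, and 0 to 2 with 1 library left out. Averaged over both trials, the 2 calls became 4 with quantile normalization, 5 with the replicate block, and 2 to 10 with 1 library left out. The trial comparison in *P. polionotus* gave 0 to 2 calls with 1 library left out. Except where a share of all genes is given above, these counts have no such share beside them. The trial comparison in *P. maniculatus*, the difference of trial effects and both hybrid comparisons stayed at 0 under each alternative run, the replicate block (for the allele comparison, its removal) and DESeq2 included. With 1 library left out, the members lower in every polionotus control library numbered 8 to 13. Those higher in every polionotus burrowing library numbered 9 to 14. The upper values were without polionotus control library 1, and neither count can fall when a library is left out. Without polionotus control libraries 2 and 3, an alternative that rests on 1 polionotus control library, the sign turned for 3 of 14 members between control animals (Hoxa5 at 0.019, Hoxb8 at 0.002 and Hoxb6 at 0.099), 5 of 14 in the average over both trials, 2 of 14 between trials in *P. polionotus* (Hoxb8 at -0.047 and Hoxc4 at -0.106) and 0 of 14 in the other 3 parental comparisons. TPM give no depth, so precision at 1 TPM is known only from the spread of 3 libraries a group. The count of members lower in every library and its counterpart with libraries left out were added after seeing the data. So were the lists and all signs without polionotus control libraries 2 and 3. Those 2 libraries were themselves picked from the Hox values.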
